A study of Mus musculus with 20 samples.

Results

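The 34 genes described here encode enzymes of fatty acid synthesis, elongation, desaturation and activation, enzymes of glycerolipid assembly, and 4 regulators of these steps. They were taken as a fixed list of symbols, and all 34 were found among the 43472 genes of the deposited count table. Expression was measured by bulk RNA sequencing of the ventral prostate of mice, an androgen-dependent gland. The groups were ARNoC/Y males given testosterone, ARNoC/Y males given vehicle, wild type C57BL/6J males (WT) given testosterone and WT males given vehicle, with 5 libraries in each. ARNoC/Y males (ARNoC) carry an androgen receptor altered so that its amino-terminal and carboxyl-terminal ends no longer interact. All 20 libraries came from orchidectomised mice, and treatment lasted 4 days in every group, so the vehicle groups are castrated mice and not intact ones. The age of the mice, the strain background of ARNoC, the dose and the vehicle are not stated in the labels, which also leave unsaid whether each library of a group came from an animal of its own. Differences were therefore tested against the spread between libraries, which may be partly technical. The altered receptor sequence cannot be seen in counts per gene, so the genotype labels were not checked.

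Cells build fatty acids from acetyl-CoA, which Acly makes from citrate and Acss2 from acetate. The carboxylases Acaca and Acacb turn acetyl-CoA into malonyl-CoA, and the synthase Fasn joins these units into palmitate with NADPH, part of which comes from the malic enzyme Me1. Elovl enzymes lengthen the chains, Scd and Fads enzymes insert double bonds, and Acsl enzymes attach coenzyme A so that the chains can be used. Gpam and Agpat2 add acyl chains to a glycerol backbone, the lipins Lpin1, Lpin2 and Lpin3 remove phosphate to give diacylglycerol, and Dgat1 or Dgat2 adds the last chain of triglyceride. Srebf1 and Mlxipl encode transcription factors that drive lipogenic genes, Pparg is the leading factor of adipocytes, and Thrsp is a lipogenic protein of liver and fat. Androgens are known to raise lipogenic enzymes in human prostate cancer cells. Adipocytes express most of the same genes, and a dissected mouse prostate can carry fat from its surroundings.

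Libraries held 8861646 to 21600352 counts, of which the 34 genes made up 0.288% to 0.608%. Values below are normalized counts, that is, counts scaled by the deposited size factors, and n is 5 libraries per group throughout. Within groups all 40 pairs of libraries differed by more than sampling noise (chi-square per degree of freedom 7.41 to 39.5), so each library counted once. Of the 34 genes, 31 had at least 10 normalized counts in at least 5 libraries and were tested among 15261 genes. Summed markers of prostate secretion stood at 1659944 to 3370109 with testosterone and 319703 to 667915 with vehicle, and luminal epithelial markers at 66351 to 102262, while seminal vesicle markers were at most 51.9. Fat differed far more between libraries. The 9 defining adipocyte markers (Adipoq, Plin1, Cidec, Adig, Lep, Retn, Adrb3, Car3 and Cfd) summed to 2650.3 to 20881 in ARNoC with testosterone, 1507 to 21789.8 in ARNoC with vehicle, 93.1 to 25253 in WT with testosterone and 1634 to 33344 in WT with vehicle.

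The lowest values belonged to WT testosterone libraries 2 and 3, whose sums were 184 and 93.1. Plin1, Cidec, Lep and Retn had 0 counts in the first of these and Plin1 and Cidec in the second, which allows up to 3 counts each, and Adipoq had 1 and 2 counts. No other library had a defining marker at 0. The adipocyte score of a library, the mean log2 of the 9 normalized counts plus 1, was 2.21 and 2.04 in these libraries and at least 5.61 in all others. The score averaged 7.91 ± 1.02 in ARNoC with testosterone and 7.91 ± 1.44 in ARNoC with vehicle (SD, exact permutation test, two-sided, p = 1, adjusted over 4 comparisons 1). It averaged 5.97 ± 3.63 in WT with testosterone and 8.69 ± 1.62 in WT with vehicle (exact permutation p = 0.206, adjusted 0.55), and the smallest p that 5 against 5 libraries allow is 0.00794. The difference between genotypes did not pass the test either, with testosterone (difference 1.94, exact permutation p = 0.357) or with vehicle (-0.78, p = 0.413, exact permutation). In bulk tissue, fewer adipocytes and less RNA per adipocyte cannot be told apart. Fibroblast markers were lowest among the vehicle groups in ARNoC vehicle library 5 (sum 5986) and WT vehicle library 2 (sum 8591).

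Between genes, levels were compared per kilobase of exon. Scd2 and Scd1, the stearoyl-CoA desaturases that make oleate, ranked 1 and 2 in 3 of the 4 groups. Scd2 had 4382, 2243, 4029.7 and 1944 normalized counts per kilobase in ARNoC with testosterone, ARNoC with vehicle, WT with testosterone and WT with vehicle. Scd1 had 2259.7, 1299, 2722 and 2386 per kilobase in the same groups and ranked 1 in WT with vehicle, although its libraries there spread so widely (levels of 2888 to 18756 normalized counts) that the order is not firm. Acly ranked 3 in every group (518 to 759.8 per kilobase). Fasn ranked 4 except in ARNoC with vehicle, where it ranked 7. The lowest of the tested genes were Elovl6 and Mlxipl, at 6.39 to 10.8 per kilobase for Mlxipl. The elongases Elovl2, Elovl3 and Elovl4 were too low to test. Elovl2 had 7, 5, 1 and 0 counts in all over the 5 libraries of ARNoC with testosterone, ARNoC with vehicle, WT with testosterone and WT with vehicle. Elovl3, an elongase of brown fat and skin, had 0, 0, 2 and 1, and Elovl4, an elongase of very long chains in retina and skin, had 27, 60, 35 and 15. A total of 0 allows up to 3 counts, and these limits cover counting error only.

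With testosterone Acsl4 and Scd2 rose most in both genotypes, Acly, Lpin2, Elovl1 and Acsl5 rose by less, and Acsl3 and Elovl7 fell. In ARNoC, edgeR's quasi-likelihood F-test, with p-values adjusted by Benjamini and Hochberg over all genes (threshold 0.05), called 8 of 31 up and 2 down, where 19.4% of all tested genes were called up and 16.8% down. In WT it called 7 up and 2 down, where 20.4% of all genes were called up and 18.8% down. These counts make 25.8% up and 6.45% down in ARNoC and 22.6% and 6.45% in WT, so the share that rose was near that of all genes and the share that fell was smaller. Acly, Acsl4, Acsl5, Elovl1, Lpin2 and Scd2 rose in both genotypes, Acsl3 and Elovl7 fell in both, and 20 of 31 were called in neither. Libraries of the 2 treatments did not overlap for 8 of 31 genes in ARNoC (6 higher and 2 lower with testosterone, against 12.4% and 10.7% of all genes) and for 6 in WT (4 and 2, against 15.2% and 11.9%). The median log2 fold change was 0.24 in ARNoC and -0.02 in WT, against -0.01 and -0.02 over all genes. The split depended on the scaling. With total-count scaling, 3 rose and 6 fell in ARNoC, where 7.72% of all genes were called up and 49.5% down. In WT 2 rose and 14 fell, where 7.2% of all genes were called up and 59.8% down. The median of all genes shifted by -0.35 in ARNoC and -0.42 in WT. The share of counts held by the top 10 genes was 18.4% to 28.1% with testosterone and 6.8% to 10.4% with vehicle. Scd2, Acsl4, Acsl3 and Elovl7 kept their direction and their calls under that scaling in both genotypes, and Lpin2 in ARNoC. The rises of Acly in both genotypes, of Elovl1, Acsl5, Elovl5 and Lpin1 in ARNoC, and of Elovl1, Lpin2 and Gpam in WT were not called under it. Single libraries also moved the count of falls in WT. It was 7 without WT testosterone library 5, when Dgat1, Fads1, Fads3, Mlxipl and Pparg were added (21.2% of all genes), and 5 without WT vehicle library 2 (19.1%).

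**Figure D1:**
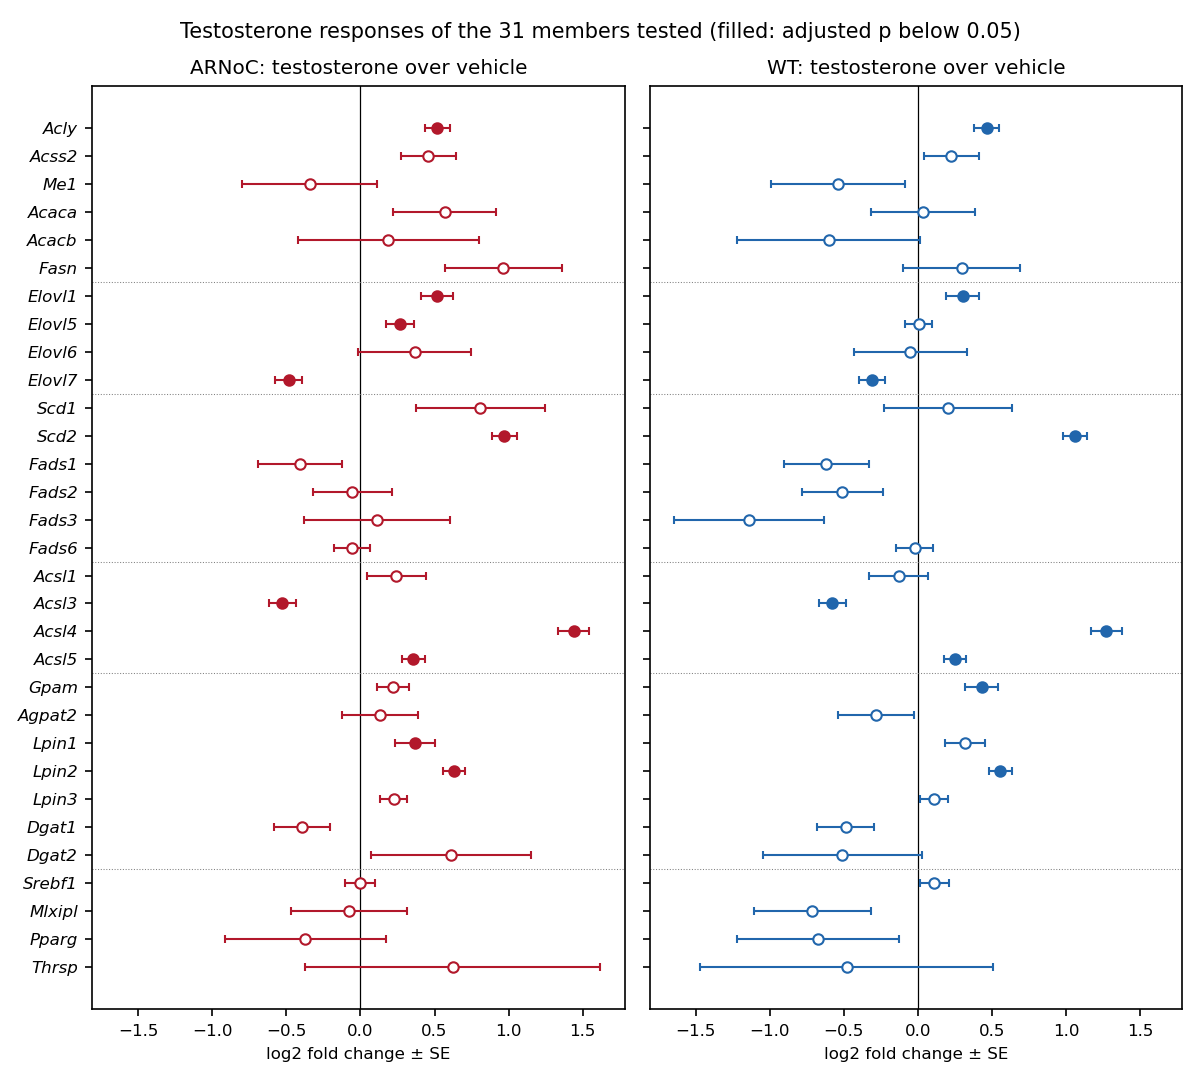
Log2 fold change of testosterone over vehicle with its SE for the 31 tested genes, ordered by role, in ARNoC (left) and WT (right), with filled points for an adjusted p below 0.05. Acsl4 and Scd2 lie farthest right among the filled points in both panels, Acsl3 and Elovl7 are the only filled points on the left, and Fasn, Scd1, Dgat2 and Thrsp have long error bars.

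Among the enzymes of precursor supply and synthesis, Acly (ATP citrate lyase, chr11:100476353-100528000, mm10) rose. It averaged 3895 ± 406 normalized counts in ARNoC with testosterone and 2735 ± 83.5 in ARNoC with vehicle (SD), a log2 fold change of 0.52 ± 0.08 (SE, edgeR adjusted p 6.55e-05). In WT it averaged 4011 ± 403 with testosterone and 2928 ± 339 with vehicle (0.46 ± 0.08, edgeR adjusted p 0.000196). The lowest testosterone library lay above the highest vehicle library in both genotypes. With total-count scaling both calls ended (log2 0.17 in ARNoC and 0.04 in WT). The other 5 genes of this step did not pass the test. Fasn stood at 0.96 in ARNoC (edgeR adjusted p 0.0646) and 0.30 in WT (0.581), and Acaca at 0.57 and 0.04. Acss2 stood at 0.46 in ARNoC, where its libraries did not overlap (358 to 503 with testosterone and 217 to 346 with vehicle) but the adjusted p was 0.0604, and at 0.23 in WT. Acacb, the carboxylase whose product mainly restrains fatty acid entry into mitochondria, was at 0.19 and -0.60, and Me1 at -0.34 and -0.54. Libraries of these genes varied widely within groups, as described below.

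Of the elongases, Elovl1 and Elovl7 moved in opposite directions. Elovl1, which lengthens saturated and monounsaturated chains, averaged 1186 ± 177 in ARNoC with testosterone and 832 ± 106 in ARNoC with vehicle (0.52 ± 0.11, edgeR adjusted p 0.000909). It averaged 1173 ± 107 in WT with testosterone and 958 ± 127 in WT with vehicle (0.30 ± 0.11, edgeR adjusted p 0.0341). The WT call was weak and ended without any 1 of the 5 WT testosterone libraries (adjusted p 0.0569 to 0.137), or without WT vehicle library 3 or 5. Elovl5, an elongase of polyunsaturated chains, was called up in ARNoC (0.27 ± 0.09, adjusted p 0.031, and 0.00 ± 0.09 in WT). That call ended without each of 7 ARNoC libraries in turn, and the difference between genotypes did not pass the test (0.26 ± 0.13, edgeR adjusted p 0.603). Elovl6, which turns palmitate into stearate, did not pass the test (0.36 and -0.05).

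Elovl7 (chr13:108214404-108285683), an elongase of long saturated chains, fell in both genotypes. Its libraries held 331, 339, 341, 410.3 and 388 normalized counts in ARNoC with testosterone and 462, 538, 432, 528 and 586 in ARNoC with vehicle. They held 502, 587, 507, 429.9 and 478 in WT with testosterone and 613, 617, 649.5, 628 and 612 in WT with vehicle. Every testosterone library was below every vehicle library of its genotype, and the ARNoC libraries with testosterone were lowest of all. The log2 fold change was -0.48 ± 0.09 in ARNoC (edgeR adjusted p 0.000235) and -0.31 ± 0.09 in WT (adjusted p 0.00873).

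The clearest rise among the desaturases was that of Scd2 (chr19:44293674-44306864). Its libraries held 22045, 23899.7, 22789.5, 26558 and 24437 normalized counts in ARNoC with testosterone and 11896, 11842, 12857, 10349 and 14337 in ARNoC with vehicle. They held 22218, 23668, 20973, 22802 and 20432 in WT with testosterone and 11229.9, 10348, 11251, 10179.6 and 10102 in WT with vehicle. The groups stood far apart in both genotypes, with the testosterone libraries close to one another. Scd2 rose 1.96-fold in ARNoC (log2 0.97 ± 0.08, edgeR adjusted p 2.53e-08) and 2.08-fold in WT (1.06 ± 0.08, adjusted p 7.69e-09). Its neighbour Scd1 (chr19:44394455-44407879) was at 0.81 ± 0.43 in ARNoC (edgeR adjusted p 0.158) and 0.20 ± 0.43 in WT (0.741) and did not pass the test. Scd1, Scd2, Scd3 and Scd4 are close paralogs, and how reads that match several of them were counted is not given in the sources used here. None of the Fads genes passed the test. Fads1 and Fads2, which desaturate polyunsaturated chains, stood at -0.41 and -0.06 in ARNoC and -0.62 and -0.51 in WT. Fads3, which acts on sphingoid bases, was at 0.11 in ARNoC and -1.14 ± 0.51 in WT (edgeR adjusted p 0.0815), and Fads6 at -0.06 and -0.02.

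Of the 4 acyl-CoA synthetases, Acsl4 rose most of all 31 genes and Acsl3 fell. Acsl4 (chrX:142317993-142390535), which prefers arachidonate and other polyunsaturated fatty acids, held 1951, 2207, 1981, 2791 and 2299 normalized counts in ARNoC with testosterone and 889, 879.6, 675, 873 and 849 in ARNoC with vehicle. In WT it held 1635, 1995, 1900.0, 1569 and 1933 with testosterone and 784, 672, 741, 868 and 699 with vehicle. No testosterone library reached down to a vehicle library in either genotype. The rise was 2.71-fold in ARNoC (log2 1.44 ± 0.10, edgeR adjusted p 1.58e-09) and 2.41-fold in WT (1.27 ± 0.10, adjusted p 9.67e-09). Acsl3 (chr1:78657825-78707743), a synthetase of the endoplasmic reticulum and lipid droplets, fell to 409 ± 25 in ARNoC with testosterone, against 592 ± 56.7 in ARNoC with vehicle (-0.53 ± 0.09, edgeR adjusted p 0.000121). It fell to 435 ± 67.3 in WT with testosterone, against 652 ± 43.6 in WT with vehicle (-0.58 ± 0.09, adjusted p 4.36e-05), with no overlap between treatments in either genotype. Acsl5, found on mitochondria and the endoplasmic reticulum, rose by less. It averaged 2012 ± 105 in ARNoC with testosterone and 1578 ± 162 in ARNoC with vehicle (0.36 ± 0.08, adjusted p 0.000976, edgeR). It averaged 1897 ± 114 in WT with testosterone and 1603 ± 160.0 in WT with vehicle (0.25 ± 0.08, edgeR adjusted p 0.013), a call that ended without WT testosterone library 2 (adjusted p 0.0775). With total-count scaling the WT value was -0.18 and was called down. Acsl1, the main synthetase of fat and liver, did not pass the test (0.24 and -0.13).

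Of the genes of glycerolipid assembly, Lpin2 rose in both genotypes. It averaged 739 ± 46.5 in ARNoC with testosterone and 479 ± 40.2 in ARNoC with vehicle (0.63 ± 0.08, edgeR adjusted p 1.66e-06), and 692 ± 36.8 in WT with testosterone and 473 ± 47.2 in WT with vehicle (0.56 ± 0.08, edgeR adjusted p 8.28e-06). Libraries of Lpin2 did not overlap between treatments, and its WT value was 0.13 with total-count scaling. The related lipin Lpin1 was called in ARNoC (0.37 ± 0.13, edgeR adjusted p 0.0372) and not in WT (0.32 ± 0.14, 0.0687), and the 2 responses differed by 0.05 ± 0.19. The ARNoC call of Lpin1 ended without each of 6 ARNoC libraries in turn. Lpin3 stood at 0.22 and 0.11 and passed in neither. Gpam, the mitochondrial acyltransferase of the first step, rose in WT (1679.8 ± 127 with testosterone and 1255 ± 203 with vehicle, 0.43 ± 0.11, edgeR adjusted p 0.00404) and was at 0.22 ± 0.11 in ARNoC (edgeR adjusted p 0.129). The difference between genotypes did not pass the test (-0.21 ± 0.16, adjusted p 0.739), and the WT value was 0.01 with total-count scaling. Agpat2 was at 0.13 and -0.28, and Dgat2 at 0.61 and -0.51, with SEs of 0.26 for Agpat2 and 0.54 for Dgat2. Dgat1 missed the threshold narrowly in WT (-0.49 ± 0.19, edgeR adjusted p 0.0503), and DESeq2 called it down there (-0.50, adjusted p 0.0305). In ARNoC it stood at -0.39 ± 0.19 (edgeR adjusted p 0.115).

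None of the 4 regulators passed the test in either genotype. Srebf1 stood at 1860.4 ± 191 in ARNoC with testosterone and 1873 ± 226 in ARNoC with vehicle, and at 2089.6 ± 304 in WT with testosterone and 1945 ± 130.5 in WT with vehicle. Its log2 fold changes were -0.00 ± 0.10 and 0.11 ± 0.10. Under total-count scaling its WT value was -0.31 and was called down. Mlxipl stood at -0.08 and -0.71, Pparg at -0.37 and -0.67, and Thrsp at 0.62 and -0.48, with an SE of 0.997 for Thrsp in ARNoC, the widest of the 31 genes.

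**Figure D2:**
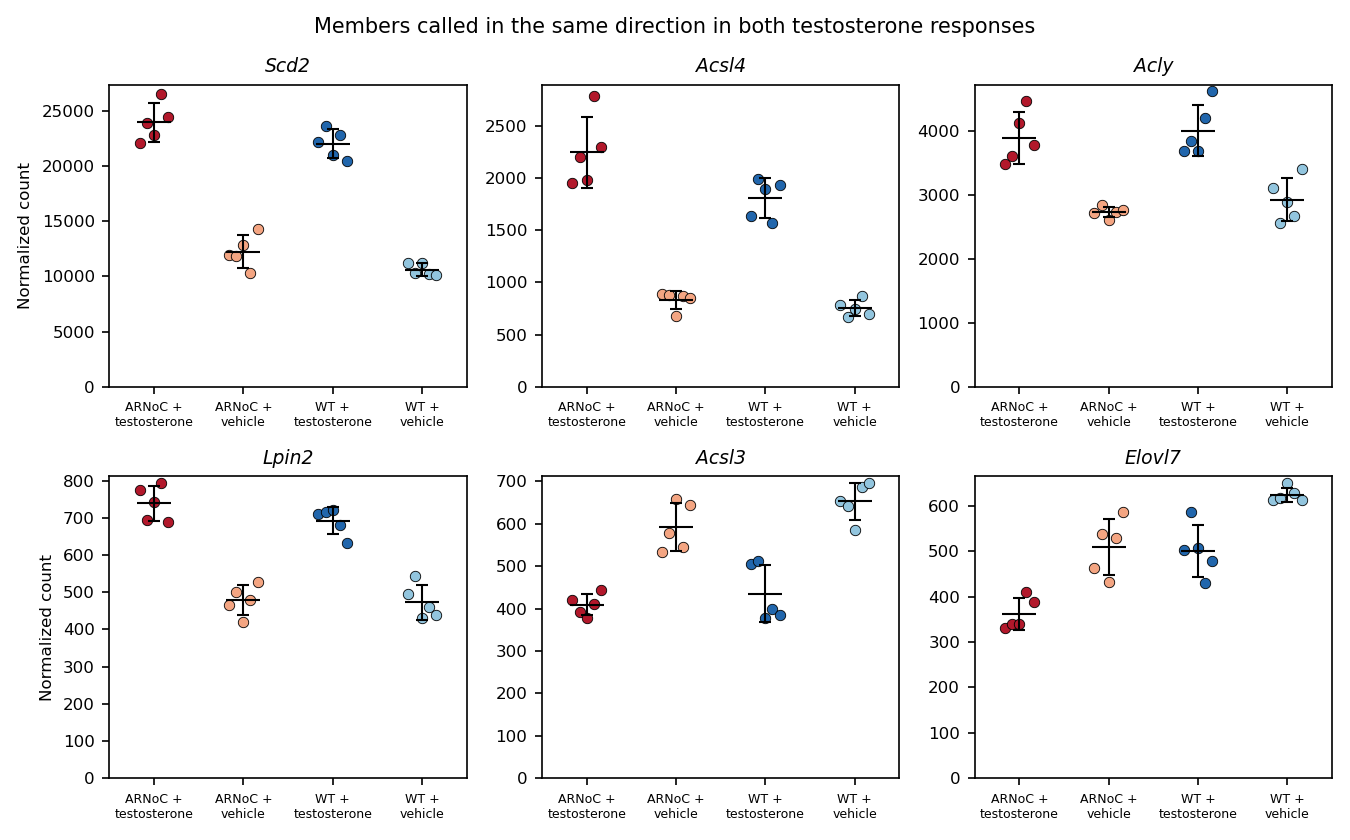
Normalized counts of 6 genes called in the same direction in both genotypes, with 1 point per library and bars for the mean and SD of 5 libraries in ARNoC with testosterone, ARNoC with vehicle, WT with testosterone and WT with vehicle. Scd2, Acsl4, Acly and Lpin2 stand higher with testosterone and Acsl3 and Elovl7 lower, with no overlap between treatments within a genotype.

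Some of these genes share positions with others, and the strand setting of the counting is not given in the sources used here. Exons of Acsl3 overlap those of Utp14b on the same strand, those of Scd2 overlap Mir5114, and those of Srebf1 overlap Mir6922, also on the same strand. Exons on the opposite strand overlap Elovl1 (Cdc20), Acsl5 (Zdhhc6), Acss2 (Ggt7, Acss2os and Gss), Agpat2 (Egfl7), Srebf1 (Rai1), Me1 (A330041J22Rik) and Elovl3 (Pitx3), so their counts are less certain.

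Promoters are shown for 3 pairs of genes, chosen after their values were seen: Acly and Acsl4, which rose with testosterone, Acsl3 and Elovl7, which fell, and Fasn and Thrsp, whose levels followed fat, as described below. The windows run from 250 bases before to 50 after the start site, are taken from RefSeq (GRCm38.p6), and read 5′ to 3′ along the gene. They were available for 28 of the 34 genes, as 41 windows, and none was used for Scd1, Scd2, Elovl3, Fads1, Dgat1 and Dgat2. Capitals mark matches, on either strand, to CCAAT (the CCAAT box) and GGGCGG (the GC box). Acly lies at chr11:100527951-100528250, minus strand, Acsl4 at chrX:142390486-142390785, minus strand, Acsl3 at chr1:78657575-78657874, plus strand, Elovl7 at chr13:108214154-108214453, plus strand, Fasn at chr11:120824498-120824797, minus strand, and Thrsp at chr7:97417501-97417800, minus strand.
Acly: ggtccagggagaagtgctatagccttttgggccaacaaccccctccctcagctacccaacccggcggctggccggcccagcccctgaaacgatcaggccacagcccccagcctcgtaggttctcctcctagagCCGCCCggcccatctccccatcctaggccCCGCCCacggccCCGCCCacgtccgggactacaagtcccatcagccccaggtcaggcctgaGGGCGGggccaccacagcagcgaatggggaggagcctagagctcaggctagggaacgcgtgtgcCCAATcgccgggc
Acsl4: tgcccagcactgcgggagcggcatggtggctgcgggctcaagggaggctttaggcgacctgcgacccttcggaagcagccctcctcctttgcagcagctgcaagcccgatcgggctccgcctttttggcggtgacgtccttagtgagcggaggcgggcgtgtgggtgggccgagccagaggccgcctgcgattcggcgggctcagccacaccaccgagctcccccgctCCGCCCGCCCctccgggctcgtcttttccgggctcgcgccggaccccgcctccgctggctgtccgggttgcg
Acsl3: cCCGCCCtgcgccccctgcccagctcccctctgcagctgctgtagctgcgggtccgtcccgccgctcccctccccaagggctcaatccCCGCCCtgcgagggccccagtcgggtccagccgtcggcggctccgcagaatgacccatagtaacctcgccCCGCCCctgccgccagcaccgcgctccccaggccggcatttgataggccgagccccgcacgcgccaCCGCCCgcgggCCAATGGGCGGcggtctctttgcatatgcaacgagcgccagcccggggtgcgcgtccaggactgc
Elovl7: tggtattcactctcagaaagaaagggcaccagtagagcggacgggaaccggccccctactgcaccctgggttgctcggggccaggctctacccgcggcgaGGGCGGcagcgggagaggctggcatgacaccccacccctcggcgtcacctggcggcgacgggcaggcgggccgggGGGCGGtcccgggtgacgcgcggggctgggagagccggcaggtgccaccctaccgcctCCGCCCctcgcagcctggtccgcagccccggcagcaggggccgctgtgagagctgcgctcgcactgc
Fasn: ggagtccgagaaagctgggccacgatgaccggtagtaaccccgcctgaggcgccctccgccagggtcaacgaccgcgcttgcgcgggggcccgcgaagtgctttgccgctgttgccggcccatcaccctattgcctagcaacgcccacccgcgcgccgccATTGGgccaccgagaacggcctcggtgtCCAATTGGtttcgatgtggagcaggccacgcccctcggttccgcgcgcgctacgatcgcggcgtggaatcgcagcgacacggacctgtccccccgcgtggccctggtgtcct
Thrsp: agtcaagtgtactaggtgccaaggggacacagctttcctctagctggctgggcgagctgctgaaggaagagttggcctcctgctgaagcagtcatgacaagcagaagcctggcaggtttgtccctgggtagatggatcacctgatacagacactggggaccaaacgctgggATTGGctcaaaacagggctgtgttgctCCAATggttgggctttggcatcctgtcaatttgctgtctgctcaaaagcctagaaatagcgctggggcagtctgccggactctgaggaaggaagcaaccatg

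In the Fasn window CCAAT or its reverse complement occurs 3 times, with first bases 90, 62 and 59 bases before the start site, the last 2 overlapping. In the Thrsp window it occurs 2 times, 79 and 52 bases before the start. Neither holds a GC box. Acly has 1 CCAAT and 4 GC boxes, Acsl3 has 1 CCAAT joined to the last of its 5 GC boxes, Elovl7 has 3 GC boxes, and Acsl4 has 2 that overlap. Both strands of every window were also searched for AGAACA, a hexamer of androgen and glucocorticoid receptor sites, for CACGTG, an E-box, and for TCACNCCAC, the core of sterol regulatory elements. None of these occurs in the 6 windows shown. CCAAT occurred in 48.8% of the windows of the 34 genes and in 37.4% of all 32851 mouse windows of the same length, GGGCGG in 58.5% and 35.7%, CACGTG in 12.2% and 7.15%, and AGAACA in 19.5% and 19.0%. TCACNCCAC occurred in 4.88% and 1.24%, in windows of Acsl1 and Mlxipl. A match describes these letters and not a bound site.

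Between genotypes, Elovl7 was the only call among these genes. With testosterone, 1 of 31 genes was called between ARNoC and WT, Elovl7, which was lower in ARNoC, where 1.01% of all genes were called lower and 0.681% higher. The Elovl7 values given above make a log2 difference of -0.46 ± 0.09 (edgeR adjusted p 0.00811), and every ARNoC library with testosterone lay below every WT library with testosterone, as was so for 2.33% of all genes. Without both WT testosterone libraries that nearly lacked adipocyte markers, the difference was -0.37 and was not called (adjusted p 0.089). Elovl7 stood at 587 and 507 in these libraries. With the adipocyte score as a covariate it was -0.41 ± 0.09 (edgeR adjusted p 0.0277), where 0.662% of all genes were called lower. Acsl4 stood 0.32 ± 0.10 higher in ARNoC with testosterone and did not pass (adjusted p 0.124, edgeR), except with total-count scaling (0.40, adjusted p 0.037). With vehicle, edgeR called 0 of 31 genes, where 0.321% of all genes were called. An unadjusted p below 0.05 was found for 3 of 31, and for 1143 of all 15261 genes. DESeq2 and limma-voom also called 0. Elovl7 (-0.29 ± 0.09, edgeR adjusted p 0.255) and Elovl5 (-0.27 ± 0.09, adjusted p 0.371) did not overlap between the genotypes with vehicle, each being lower in ARNoC, as were 0.806% of all genes. The difference between the responses, ARNoC minus WT, was called for 0 of 31 genes and for 0% of all genes by edgeR. None of the 31 had an unadjusted p below 0.05, and DESeq2 and limma-voom called 0. It was 0.17 ± 0.14 for Acsl4, -0.09 ± 0.12 for Scd2, 0.05 ± 0.12 for Acly and -0.17 ± 0.13 for Elovl7, and ran up to 1.25 ± 0.71 for Fads3 and 1.12 ± 0.76 for Dgat2, where the SEs were large.

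Dependence on fat was tested by adding the adipocyte score of each library to the means of the 4 groups. The slope is the log2 change of a gene for each unit of score, which is a doubling of the markers, among libraries of the same group. It was called above 0 for 12 of 31 genes and below 0 for none, where 0.891% of all genes were called above 0 and 0.0197% below. Thrsp had the steepest slope, 1.18 ± 0.06 (SE, edgeR adjusted p 2.21e-11), within the range of slopes of the 9 markers themselves (0.29 to 1.22, median 1.09). The score is built from these 9 markers, so their slopes are partly fixed in advance and the range serves only as a scale. Acacb (0.45 ± 0.07, edgeR adjusted p 0.000534), Dgat2 (0.41 ± 0.05, 2.13e-05), Pparg (0.39 ± 0.06, 0.000417) and Fads3 (0.34 ± 0.06, 0.00865) came next. Me1 (0.30), Fasn (0.26 ± 0.04, edgeR adjusted p 0.001), Scd1 (0.26 ± 0.05, 0.0211), Acaca (0.23), Agpat2 (0.17), Dgat1 (0.13) and Acss2 (0.12) completed the 12. They include both carboxylases, the synthase, both acyltransferases of the last step and the adipocyte factor Pparg, but none of the 8 genes called in both testosterone responses. Genes that vary more between libraries are harder to call in a response, so this split is partly built in. With the score as a covariate, Fasn, Scd1 and Acss2 were called in both responses, as described below.

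**Figure D3:**
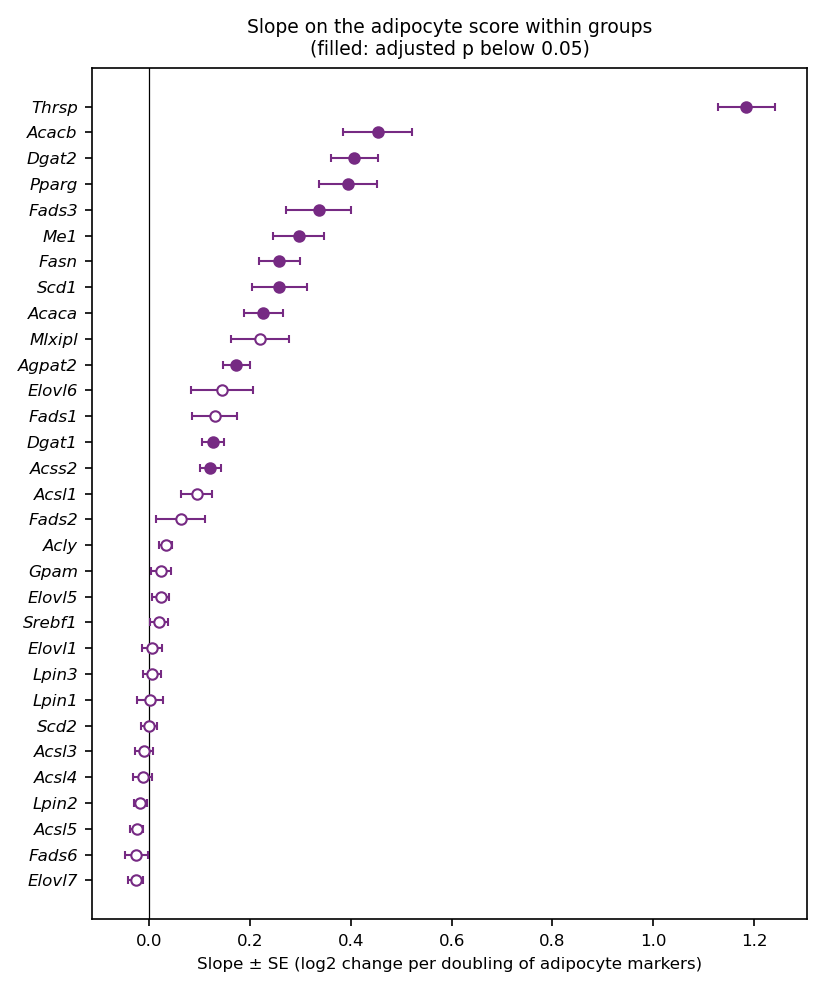
Slope of each of the 31 tested genes on the adipocyte score within groups, with its SE, as the log2 change per doubling of the adipocyte markers; filled points have an adjusted p below 0.05. Thrsp stands apart at 1.18, 11 further filled genes run down to 0.12 for Acss2, and Scd2, Acsl4, Acsl3 and the lipins lie near 0.

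Single libraries show the pattern for Thrsp. It held 423, 129, 1103, 223 and 189.9 normalized counts in ARNoC with testosterone and 303, 695, 147, 51.3 and 139.8 in ARNoC with vehicle. In WT it held 114, 1.18, 3.1, 624 and 1212 with testosterone and 1255, 24.1, 411, 485 and 641 with vehicle. The 2 WT testosterone libraries that nearly lacked adipocyte markers were also lowest for Thrsp, and the library with the highest score was the highest in each group. Dgat2 held 160.3 and 91.5 in those 2 libraries, against 952 in WT testosterone library 5, whose score of 9.76 was the highest of its group.

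Fasn held 4561, 3632, 8762, 4807 and 3167 in ARNoC with testosterone and 2710.3, 4134, 2382, 1759.5 and 1871 in ARNoC with vehicle. It held 3135, 2849.9, 2877, 6879 and 10778 in WT with testosterone and 6774, 2037, 3297, 3584 and 6105 in WT with vehicle. In the WT testosterone libraries 2 and 3 Fasn stood at 2849.9 and 2877, above 2037 in WT vehicle library 2, whose adipocyte score was higher (5.92). All other WT vehicle libraries, with scores of 8.70 to 9.98, stood above both, at 3297 to 6774. WT testosterone library 1 stood at 3135 with a score of 7.24, so Fasn changed little from the lowest scores up to 7.24 in WT with testosterone. Scd1 held 11199.9, 6771, 18007, 10380.3 and 8914 in ARNoC with testosterone and 7155, 11594, 5222, 3198 and 4602 in ARNoC with vehicle, and 9399, 9646, 8098, 14112 and 25329 in WT with testosterone and 18613, 2888, 8179, 9933 and 18756 in WT with vehicle. Its treatment groups overlapped in both genotypes.

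**Figure D4:**
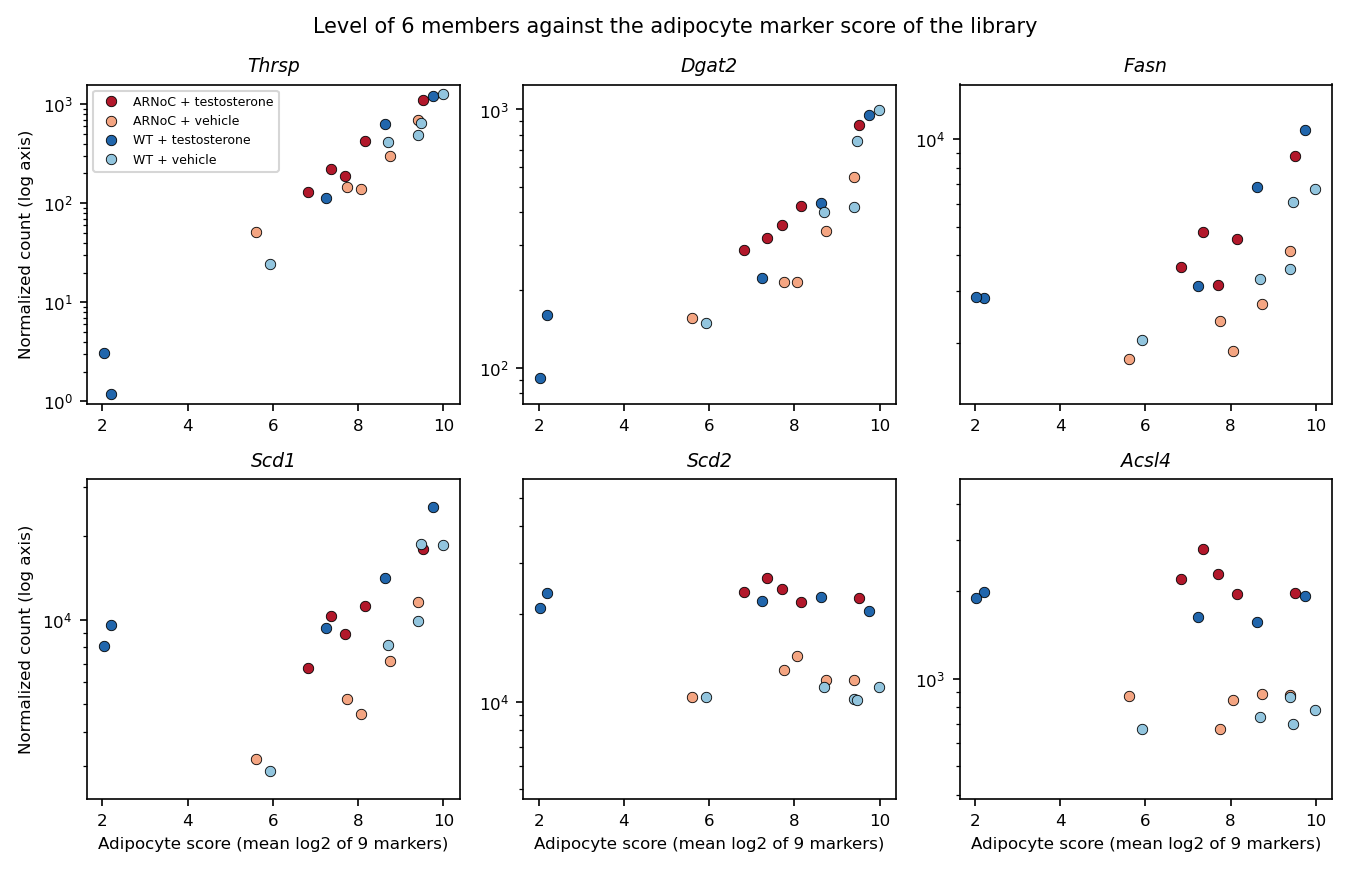
Normalized count (log axis) of 6 genes in each of the 20 libraries against the adipocyte score of the library, coloured by group. Thrsp and Dgat2 climb with the score in one band, and Fasn and Scd1 climb less steeply. In WT with testosterone, Fasn and Scd1 rise mainly above a score of 7.24. Scd2 and Acsl4 lie in flat bands, higher with testosterone.

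The spread between libraries followed the same division. The coefficient of variation of the 12 genes had a median of 48.2% in ARNoC with testosterone, 32.1% in ARNoC with vehicle, 71.1% in WT with testosterone and 48.0% in WT with vehicle. In the other 19 tested genes the medians were 11.2%, 10.8%, 13.8% and 11.6%. These 12 genes were chosen by their slope in the same libraries, so this comparison is a description. The number of called slopes was 8 without WT testosterone library 5, when Acss2, Acaca, Scd1 and Fads3 missed the threshold (0.577% of all genes were then called), and 8 to 13 without any 1 library. Without the 2 libraries that nearly lacked adipocyte markers it was 10, when Acss2, Me1 and Fads3 missed it and Acsl1 passed (0.21), with 0.78% of all genes called. With the summed markers on a linear scale as the covariate it was 14, with 1.74% of all genes called.

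The testosterone responses were then fitted with the adipocyte score as a covariate. In ARNoC, where the score averaged 7.91 in both treatments, 13 of 31 genes were called up and 3 down, where 19.5% of all genes were called up and 17.3% down. Acss2, Acaca, Fasn, Scd1 and Thrsp were added to the genes that rose and Dgat1 to those that fell. The estimates of these genes changed little and their errors shrank. Fasn was at 0.96 ± 0.23 with the score (edgeR adjusted p 0.00292) and 0.96 ± 0.40 without it. Scd1 was at 0.85 ± 0.30 with the score (edgeR adjusted p 0.033) and 0.81 ± 0.43 without it, and Thrsp at 0.77 ± 0.21 (adjusted p 0.00796) and 0.62 ± 0.997. Acaca (0.56 ± 0.21, edgeR adjusted p 0.0454), Acss2 (0.47 ± 0.11, 0.0033) and Dgat1 (-0.38 ± 0.12, 0.0159) also passed with the score.

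In WT, where the score differed more between libraries, 8 genes were called up and 2 down with the score, where 16.8% of all genes were called up and 14.5% down. The fit with the score takes 1 slope over all scores, and whether that holds down to the 2 lowest scores was not tested. Fasn was at 0.92 ± 0.26 in that fit (edgeR adjusted p 0.0107), against 0.30 ± 0.39 without the score, and Scd1 at 0.999 ± 0.36 (adjusted p 0.0412), against 0.20 ± 0.43. Acss2 was also called (0.51 ± 0.13, edgeR adjusted p 0.00455), while Elovl1 (0.32) and Acsl5 (0.19) were no longer called (adjusted p 0.0575 and 0.0831). The WT values of Dgat2, Thrsp and Pparg had been below 0 and were above 0 with the score (0.34, 0.59 and 0.11), none of them called in either fit. With the score and without the 2 WT testosterone libraries that nearly lacked adipocyte markers, Fasn was at 0.66 ± 0.23 in WT (edgeR adjusted p 0.0342) and Scd1 at 0.65 ± 0.20 (0.0208). In that fit 12 genes were called up and 3 down in ARNoC, where 17.7% of all genes were called up and 20.3% down, and 8 up and 2 down in WT, where 14.8% and 15.6% were. The difference between the responses was 0.04 ± 0.35 for Fasn and -0.15 ± 0.47 for Scd1 with the score, and 0 of 31 genes were called.

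**Figure D5:**
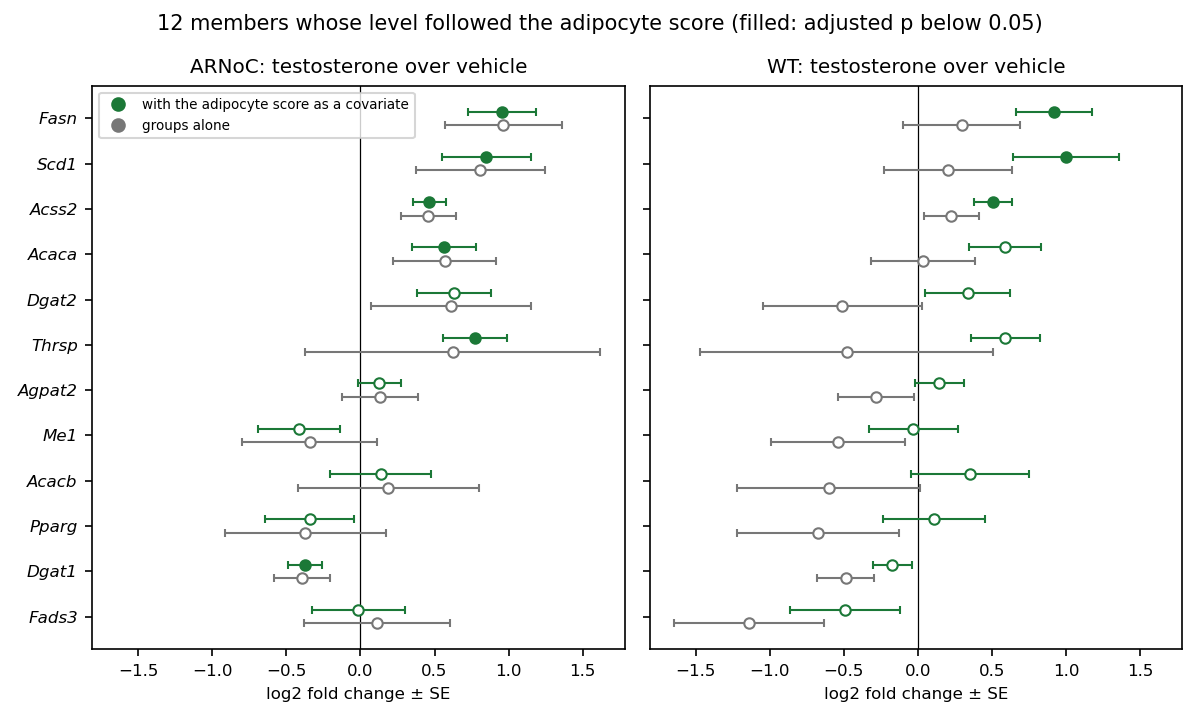
Log2 fold change of testosterone over vehicle with its SE for the 12 genes whose level followed the adipocyte score, in ARNoC (left) and WT (right), fitted with the score (green) and with group means alone (grey); filled points have an adjusted p below 0.05. Fasn, Scd1 and Acss2 are filled in both panels with the score, and in WT most green points lie to the right of the grey ones.

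Genes that work beside these enzymes were read from further lists. Where a gene of these lists has a value for 1 genotype only, it had 1 of the 2 smallest adjusted p of its list there. Such values do not show a difference between genotypes: the difference between the responses was called for 0% of all genes. The counts of each list stand against 19.4% of all tested genes called up and 16.8% down in ARNoC, and 20.4% and 18.8% in WT. Of 13 tested genes of glycerolipid assembly 6 rose and 1 fell in ARNoC, and 5 rose and 2 fell in WT. They include Agpat3, an acyltransferase of phosphatidic acid synthesis (0.95 in ARNoC and 1.16 in WT), and Bscl2, or seipin, of lipid droplet formation (0.83 and 0.65). Of 17 lipogenic control genes 8 rose and 2 fell in ARNoC (47.1% and 11.8%), and 7 rose and 1 fell in WT (41.2% and 5.88%). Scap, which carries SREBP precursors to the Golgi, rose by 1.12 in WT, and Mbtps1, the protease that first cuts them there, rose by 0.79 and 0.68. Prkaa2, a catalytic subunit of the energy sensor AMPK, rose by 0.89 in ARNoC. Of 11 genes of the elongation cycle and mitochondrial synthesis 2 rose and 2 fell in each genotype (18.2% each way), near the share of all genes. The dehydratase Hacd2, listed as Ptplb, rose (0.86 and 0.79), as did the reductase Hsd17b12 in ARNoC (0.50), and Cbr4 fell in WT (-0.41). The WT value of Hsd17b12 was 0.29, and -0.14 with total-count scaling.

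Degs1, the desaturase that completes ceramide, fell in both genotypes (-1.53 in ARNoC and -1.32 in WT), as did Cyb5r3, which supplies electrons to desaturases (-0.49 and -0.46). Of these 6 desaturation genes 2 rose and 2 fell in ARNoC, and 3 rose and 2 fell in WT. Of 11 genes of precursor supply 5 rose and 4 fell in ARNoC, and 3 rose and 4 fell in WT. Acss1, the mitochondrial acetyl-CoA synthetase, fell in both (-0.80 and -0.51), Acss3 fell in ARNoC (-1.57) and Idh1, a source of cytosolic NADPH, fell in WT (-1.16). Of 7 further activation genes 2 rose and 1 fell in ARNoC, and 3 rose and 1 fell in WT. The very long chain synthetase Slc27a2 rose in both (0.98 and 1.23), Acsbg1 rose in WT (2.06), and Slc27a1 fell in ARNoC (-0.58), a gene whose level also followed the adipocyte score (slope 0.10). Of 26 phospholipid genes 7 rose and 5 fell in ARNoC (26.9% and 19.2%, against 19.4% and 16.8% of all genes). In WT 6 rose and 3 fell (23.1% and 11.5%, against 20.4% and 18.8%). The ethanolamine phosphotransferase Selenoi, listed as Ept1, rose (0.40 and 0.44), Lpcat2 fell in ARNoC (-0.68) and Cept1 fell in WT (-0.34).

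Of 13 genes of lipid droplets and lipolysis 3 rose and 1 fell in ARNoC, and 1 rose and 3 fell in WT. This list follows fat as well: 6 of the 13 had a called slope above 0 on the adipocyte score. That share was 46.2%, against 38.7% of the 31 genes and 0.891% of all tested genes. The list holds Cidec, 1 of the 9 defining adipocyte markers that make up the score, so its slope is partly fixed in advance. Hsd17b11, Plin2 and Plin3, named here, were not among the 6. Hsd17b11 fell in both (-0.52 in ARNoC and -0.48 in WT), the droplet coat gene Plin2 fell in WT (-0.69), and Plin3 rose in ARNoC (0.28). The Plin3 value was -0.07 with total-count scaling, and in WT -0.19. Fatty acid oxidation, the opposing pathway, was mixed. Of 28 genes 8 rose and 7 fell in ARNoC (28.6% and 25%, against 19.4% and 16.8% of all genes). In WT 6 rose and 9 fell (21.4% and 32.1%, against 20.4% and 18.8%). Acox3, a peroxisomal oxidase, rose by 2.42 in ARNoC and 2.55 in WT, and the mitochondrial thiolase Acaa2 by 1.09 and 1.30. Between genotypes, 3 genes of these lists were called. Of all tested genes, 0.681% were called higher and 1.01% lower in ARNoC with testosterone, and 0.321% in either direction with vehicle. The share of the lists is not reported, so these calls do not tell whether these genes alone moved. With testosterone Chka, the choline kinase, was lower in ARNoC (-0.54, edgeR adjusted p 0.0481) and Mbtps1 higher (0.26, 0.0365), and with vehicle Degs2 was higher in ARNoC (1.12, 0.0239).

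Markers of other cells moved with treatment too. Over all tested genes 19.4% were called up and 16.8% down in ARNoC, and 20.4% and 18.8% in WT. Marker calls were not read under total-count scaling, which shifted the median of all genes by -0.35 in ARNoC and -0.42 in WT. Of 12 macrophage markers 10 fell in ARNoC and 12 in WT, and their sums were 2742 to 5429 in ARNoC with testosterone, 2973 to 12738 in ARNoC with vehicle, 1597 to 3679 in WT with testosterone and 3407 to 19272 in WT with vehicle. Of 12 fibroblast and matrix markers 1 fell in ARNoC and 5 in WT. Of 10 smooth muscle markers 6 rose in ARNoC and 2 in WT, and of 10 luminal epithelial markers 6 fell in each. Of 7 basal epithelial markers 5 fell in ARNoC and 4 in WT, and of 7 lymphocyte markers 4 and 5. Of 10 endothelial markers none was called in ARNoC and 4 fell in WT, and of 6 nerve and Schwann cell markers 2 fell in ARNoC and 1 in WT. Of 8 secretion markers 7 rose in ARNoC and 6 in WT. None of the 9 defining adipocyte markers was called in either genotype, with medians of -0.22 in ARNoC and -1.05 in WT, and of 10 wider adipocyte genes none was called in ARNoC and 1 fell in WT. With the stromal score, the mean log2 level of fibroblast and smooth muscle markers, as a covariate, 9 of the 31 genes were called up and 3 down in ARNoC, and 7 up and 2 down in WT. In that fit 22.1% of all genes were called up and 20% down in ARNoC, and 19.7% and 18.6% in WT. The part of macrophages and of the epithelium in these responses was not tested.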

How the data were processed

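Total RNA of ventral prostate was sequenced in 20 libraries by the TruSeq protocol, per the labels' protocols. Reads were checked with FastQC 0.11.7, aligned to mm10 with HISAT2, handled with SAMtools 1.5, counted with HTSeq and normalized with DESeq2, per the submitters' processing notes. The sources used here name neither the annotation nor the strand setting. The authors deposited raw counts per gene, a signal per gene scaled by library (normalized counts, each equal to the count over its size factor within 4.7e-09), and the size factors, which are ratios. The labels give no batch, and replicate numbers follow accession order.

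Genes that reached 10 normalized counts in 5 or more libraries were fitted with edgeR 4.0.16 (TMM scaling, quasi-likelihood F-test, R 4.3.3) with a mean for each of the 4 groups over all 20 libraries, and p-values were adjusted over 15261 genes. Slopes on the adipocyte score and responses at equal score added the score to this model. The SE is the log2 fold change over the root of F. DESeq2 1.42.0, limma 3.58.1, other scalings, filters and covariates and left-out libraries were alternatives, and the scripts were tested on simulated data. Gene positions and exon lengths are from GENCODE M21, and 11 listed genes were found under older symbols. Differences between libraries limit precision more than depth does.

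The genes and lists were chosen with earlier results of these data known. Values of every library are given for genes called in a comparison with a log2 fold change of at least 1 either way, or in a genotype comparison, and, chosen after their values were seen, for Fasn, Scd1 and Thrsp. From each further list, the 2 genes with the smallest adjusted p in each response are named.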

Additional observations from a re-analysis of the deposited data

Results flagged for a closer look

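Within groups of 5, the highest or lowest library was tested for standing apart with Dixon's ratio at its 95% critical value, for the 31 tested genes and the adipocyte score, in 128 groups. Chance alone gives about 1 such library in 20 groups. In the 128 groups 6 were found, or 4.69 per 100 groups, so their number is near what chance gives.

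Pparg and Dgat2 stood high in ARNoC testosterone library 3, at 176.8 normalized counts for Pparg (56.2 to 78.0 in the other 4 libraries) and 874 for Dgat2 (287 to 424 in the others). That library had the highest adipocyte score of its group, 9.52. In WT testosterone library 5, which had the highest score of its group (9.76), Pparg stood at 250.4 (27.1 to 72.8 in the others) and Acsl1 at 1885 (1249 to 1431 in the others). The part of attached fat in these 4 values was not tested. Without WT testosterone library 5, 7 of 31 genes were called down in WT in place of 2.

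Fads2 was low in ARNoC testosterone library 2, at 33.9 normalized counts, against 91.4 to 112.4 in the other 4. Acsl4 was low in ARNoC vehicle library 3, at 675 normalized counts, against 849 to 889 in the others, and its rise in ARNoC was called without any 1 library.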

How the results depend on the processing

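Scaling moved the counts most. With total-count scaling 3 genes rose and 6 fell in ARNoC (7.72% and 49.5% of all genes), 2 rose and 14 fell in WT (7.2% and 59.8%), and 1 was higher in ARNoC than in WT with testosterone. Among genes called with either scaling, signs turned for Elovl5 (-0.0805) and Plin3 (-0.0698) in ARNoC. In WT they turned for Elovl1 (-0.12), Elovl5 (-0.41), Acsl5 (-0.18), Lpin3 (-0.31), Srebf1 (-0.31), Hsd17b12 (-0.14) and Plin3 (-0.19). Genes called with neither scaling could also change sign and are not listed. Falls in WT numbered 4 with DESeq2 and with limma-trend at pseudocounts 1 and 5, and 5 without both stroma-poor vehicle libraries or without the library richest in fat of each group. Rises in ARNoC numbered 13 with the adipocyte score as a covariate (19.5% of all genes) and 14 with the summed markers, an alternative chosen after seeing the data. Where no share of all genes stands beside a count here, that share is not reported. Such counts do not tell whether these genes alone moved. The lower Elovl7 of ARNoC with testosterone was the only call of that comparison, and 0 were left without both fat-poor libraries, with or without the score, alternatives also chosen after seeing the data. The cause was not tested.

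Without 1 library at a time, rises numbered 6 to 9 in ARNoC and 5 to 8 in WT, falls 2 to 3 in ARNoC and 2 to 7 in WT, and slopes on the score above 0 numbered 8 to 13. The 7 falls came without WT testosterone library 5, when 21.2% of all genes were called down in WT. For most of these fits the share of all genes is not reported, so the ranges describe the 31 genes only. Over all other alternatives, 3704 values stayed on their side of the threshold, 74 gained a call and 51 lost one. A further 9 changed sign with a call in the main fit or in the alternative. Changes of sign among values called in neither fit are counted within the 3704. No paired analysis was possible because the labels give no replicate numbers that the groups share. At these depths Elovl2, Elovl3 and Elovl4 could not be tested.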
